A study of Mus musculus with 16 samples.

Results

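The genes described are 10 regulators of cell cycle arrest: the CDK inhibitors Cdkn1a (p21), Cdkn1b (p27), Cdkn1c (p57), Cdkn2a (p16Ink4a and p19Arf), Cdkn2b (p15) and Cdkn2c (p18), and Trp53, Mdm2, Ccng1 and Plagl1 of the p53 response. They were picked by symbol, and every probe set annotated to one of these symbols alone was taken. Of the 10 genes, 9 had such a probe set, 17 probe sets in all, among 18194 genes and 45101 probe sets on the array. Trp53 itself was not analysed here. All 9 genes passed the filter on low signal, which kept 14286 genes, although only 6 of 16 arrays had Cdkn2a above their 40th percentile.

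The arrays were run on sorted cells of mouse tail epidermis, on a mixed strain background, after induction of SmoM2, a mutant Smoothened that keeps the hedgehog pathway switched on and gives mice tumours resembling basal cell carcinoma. Basal interfollicular epidermis (IFE) cells came from K14CREER/Rosa-SmoM2-YFP mice, whose tamoxifen-dependent Cre is driven by the keratin 14 promoter. There were 3 arrays of untreated mice (control), and for SmoM2+ cells 1 array at 3 days after tamoxifen, 3 arrays each at 1 week and at 4 weeks, and 2 arrays at 10 weeks. A further strain added 2 b-cat flox/flox alleles to K14CREER/Rosa-SmoM2-YFP, so that β-catenin is lost as SmoM2 is switched on, and gave 2 arrays of SmoM2+ cells at 4 weeks; no group had β-catenin loss alone. Bulge and outer root sheath cells of K19CREERT2/Rosa-SmoM2-YFP mice gave 1 array from an untreated mouse and 1 array 4 weeks after tamoxifen. All IFE groups carried the K14CREER and Rosa-SmoM2-YFP alleles, and the controls received no tamoxifen, so SmoM2, tamoxifen, the time since it and the sort for SmoM2+ cells cannot be told apart. The labels give neither the ages of the mice nor whether replicates were separate mice, so p-values measure only the spread between these samples. A lower signal in sorted cells cannot be told apart from fewer expressing cells.

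Cells stop dividing when CDK inhibitors block the cyclin-dependent kinases that inactivate the retinoblastoma protein. The INK4 proteins (p15, p16, p18) bind CDK4 and CDK6, and the CIP/KIP proteins (p21, p27, p57) act on a wider range of cyclin-CDK complexes. p53 is a transcription factor that raises p21 and Ccng1 (cyclin G1) and also Mdm2, the ubiquitin ligase that marks p53 for degradation, while p19Arf holds Mdm2 back. Plagl1 (Zac1) is an imprinted zinc finger protein that can slow proliferation and act as a cofactor of p53. In skin the Ink4/Arf locus is known to be held silent by Polycomb proteins in dividing progenitors and to respond to oncogenic stress.

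The start regions of the 3 genes with the widest differences between groups, Cdkn2b, Cdkn2a and Plagl1, are shown from RefSeq (GRCm38.p6, 250 bases before to 50 bases after the annotated start), with GC boxes in capitals (GGGCGG on either strand). Cdkn2a has an upstream start, which belongs to Arf, and a downstream start, which belongs to Ink4a.
Cdkn2b, chr4:89310983-89311282, minus strand: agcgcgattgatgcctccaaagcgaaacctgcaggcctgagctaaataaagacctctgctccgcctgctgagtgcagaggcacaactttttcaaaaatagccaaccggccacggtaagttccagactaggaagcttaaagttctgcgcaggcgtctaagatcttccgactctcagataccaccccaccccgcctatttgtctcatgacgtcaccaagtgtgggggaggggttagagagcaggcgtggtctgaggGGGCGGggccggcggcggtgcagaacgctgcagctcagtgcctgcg
Cdkn2a upstream start, chr4:89294570-89294869, minus strand: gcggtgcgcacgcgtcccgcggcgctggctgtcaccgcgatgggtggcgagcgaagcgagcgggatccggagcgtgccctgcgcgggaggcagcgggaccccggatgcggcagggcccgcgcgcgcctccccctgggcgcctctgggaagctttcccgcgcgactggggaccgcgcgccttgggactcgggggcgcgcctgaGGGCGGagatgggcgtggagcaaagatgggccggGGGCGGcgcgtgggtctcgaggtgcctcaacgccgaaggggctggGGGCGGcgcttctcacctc
Cdkn2a downstream start, chr4:89282143-89282442, minus strand: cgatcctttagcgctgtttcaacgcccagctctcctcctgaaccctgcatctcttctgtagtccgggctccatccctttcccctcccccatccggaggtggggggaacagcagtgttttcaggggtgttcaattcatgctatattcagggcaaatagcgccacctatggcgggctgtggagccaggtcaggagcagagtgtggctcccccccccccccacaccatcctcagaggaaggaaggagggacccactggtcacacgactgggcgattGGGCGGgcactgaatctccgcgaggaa
Plagl1, chr10:13090582-13090881, plus strand: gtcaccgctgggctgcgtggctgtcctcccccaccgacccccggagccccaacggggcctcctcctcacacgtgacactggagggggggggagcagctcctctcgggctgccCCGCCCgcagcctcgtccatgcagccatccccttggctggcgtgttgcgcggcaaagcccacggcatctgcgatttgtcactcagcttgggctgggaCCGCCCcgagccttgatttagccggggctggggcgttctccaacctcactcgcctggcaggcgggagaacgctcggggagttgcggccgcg
The GC content of these windows was 57.7% (Cdkn2b), 77.0% (Cdkn2a upstream), 60.3% (Cdkn2a downstream) and 70.7% (Plagl1), against a median of 52.7% over 32851 promoters of the same length. They held 18, 45, 12 and 26 CpG dinucleotides in that order, against a median of 7. The GC box occurred in 35.7% of all promoters. The letters GACCACCCA, bound by GLI factors, which act at the end of the hedgehog pathway, and CTTTGAT, bound by the TCF/LEF partners of β-catenin, were searched on both strands and were found in 0.253% and 3.73% of promoters. No member's window held either of them, which says only that these letters are absent from these windows. Cdkn2a and Cdkn2b are neighbouring protein-coding genes on chromosome 4.

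For the p53 genes, the upstream start of Cdkn1a is shown because it held both matches of this gene to the p53 response element decamer (capitals), a consensus present in 8.36% of promoters of this length.
Cdkn1a upstream start, chr17:29090729-29091028, plus strand: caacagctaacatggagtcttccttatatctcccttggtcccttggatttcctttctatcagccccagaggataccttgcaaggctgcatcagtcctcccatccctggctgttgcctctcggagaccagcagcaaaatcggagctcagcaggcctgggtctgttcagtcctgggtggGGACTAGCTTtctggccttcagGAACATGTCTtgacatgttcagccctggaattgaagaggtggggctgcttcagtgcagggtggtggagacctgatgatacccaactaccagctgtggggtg
Its decamers were GGACTAGCTT, 73 bases before the start, and GAACATGTCT, 51 bases before it. Mdm2 held 1 match, GAACTTGCCT, 186 bases before its start, and Ccng1 held 1 match, GGGCAAGCCT, 185 bases before its start. The Trp53 window held GGACTTGCCC, 75 bases before its start. None of them overlapped a match to the other motifs. The 9 members with a RefSeq entry were all but Cdkn1c.

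Array signals are log2 values, so a difference of 1 is a 2-fold difference. Array medians lay between 5.38 and 5.53, and the 40th percentile, used as the line for low signal, between 4.88 and 5.01. The mean of 3 hedgehog targets was 6.45 to 7.2 in IFE control arrays, 8.08 at 3 days, 9.1 to 11.16 at 1 week, 10.47 to 11.64 at 4 weeks, 10.85 to 11 at 10 weeks and 7.43 to 9.95 with β-catenin loss. In the bulge it was 10.04 in the control and 11.13 with SmoM2, and the source label of that control names SmoM2+ cells although its title gives no tamoxifen. Basal keratinocyte markers stood at a mean of 11.4 to 12.31 in all 16 arrays. Cd34, which defines the bulge, was 3.65 to 5.63 in the IFE arrays, and in the bulge it was 9.72 without and 6.83 with SmoM2. Of all arrays, 4-week replicate 2 lay farthest along the first principal component (48, against 30.4 and 21.7 for the other 4-week arrays), and the 10-week arrays differed from each other by a median of 0.118, less than any other pair of replicates (0.279 to 0.484).

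In total, 2 of the 9 members passed the test in any comparison. Cdkn2b was higher than in control cells at 4 and 10 weeks and lower with β-catenin loss than with SmoM2 alone, and Plagl1 was lower at 10 weeks. At 4 weeks 1 of 9 members passed, where 3.24% of all genes tested did. The fit behind these counts had no block for replicate number, and with such a block Plagl1 passed as lower at 4 weeks too. At 10 weeks 2 of 9 passed (background 0.7%), and 1 of 9 passed between β-catenin loss and SmoM2 alone (background 2.23%). At 3 days and 1 week 0 of 9 passed by limma's moderated test, as did 0 of all 14286 genes, and at an unadjusted p under 0.05 there were 222 genes (1.55%) with 1 member among them at 3 days and 677 genes (4.74%) with 0 members at 1 week. With β-catenin loss against control 0 of 9 passed (background 0.371%). The comparisons with the IFE control share its 3 arrays, and those with 4-week cells share these arrays too.

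Cdkn2b encodes p15Ink4b, the INK4 inhibitor best known as a target of TGF-β signalling in keratinocytes. Its signal (probe set 1449152_at) was 7.55, 7.42 and 7.94 in the 3 control arrays, 8.9 at 3 days, and 7.82, 8.11 and 8.07 at 1 week. It was 8.87, 9.46 and 8.72 at 4 weeks, and 9.33 and 9.13 at 10 weeks. Every 4-week and 10-week array was above every control and 1-week array, and the lone 3-day array was also above all controls. With β-catenin loss the values were 7.11 and 6.93, below every other IFE array.

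By limma (adjusted over 14286 genes), Cdkn2b rose 2.61-fold at 4 weeks (log2 difference 1.38 ± 0.22 SE, 95% interval 0.89 to 1.87, 3 arrays against 3, adjusted p = 0.0123). At 10 weeks it rose 3.02-fold (1.59 ± 0.25, interval 1.05 to 2.14, adjusted p = 0.0175). With β-catenin loss it was 3.99-fold lower than with SmoM2 alone at 4 weeks (-2.0 ± 0.25, interval -2.54 to -1.45, adjusted p = 0.00948), and its difference from the control, -0.61 ± 0.25, had an adjusted p of 0.282. The 3-day difference was 1.26 ± 0.32 (adjusted p = 1), with the lone array assumed to vary like the other groups. Between 1 and 4 weeks it was 1.02 ± 0.22 (adjusted p = 0.997, a comparison in which 0 genes passed and 4.82% had an unadjusted p under 0.05), and between 4 and 10 weeks 0.21 ± 0.25 (adjusted p = 0.904).

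In order of group means, Cdkn2b stood at 7.02 with β-catenin loss, 7.63 in control cells, 8 at 1 week, 8.9 at 3 days, 9.02 at 4 weeks and 9.23 at 10 weeks. Control and 1 week overlapped in their arrays, as did 4 and 10 weeks, and the step from β-catenin loss to control did not pass the test. Between β-catenin loss and SmoM2 alone at 4 weeks the hedgehog targets were lower too (3 of 3 negative, median -2.06, 0 called). Their part in the Cdkn2b difference was not tested. The 4-week call was lost without control replicate 2 (adjusted p = 0.0708). The 10-week call was lost in 4 of 5 fits that left out 1 array: control replicate 1 (0.0563), control replicate 2 (0.0814), 10-week replicate 1 (0.374) or 10-week replicate 2 (0.226). It was also lost with the 2 alike 10-week arrays averaged as 1 sample (0.259). The call with β-catenin loss was lost without β-catenin loss replicate 1 (0.0712) and in a fit on the compared groups alone (0.0698).

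Cdkn2a encodes p16Ink4a and, in another reading frame, p19Arf; which of these transcripts the probe set reads was not tested. Its signal (1450140_a_at) was 4.18, 3.92 and 4.32 in control cells, 4.4 at 3 days, and 3.97, 4.65 and 4.43 at 1 week, all below the 40th percentile of the arrays. At 4 weeks the 3 arrays disagreed, at 3.97, 8.73 and 5.72. At 10 weeks both were high, at 7.52 and 7.85. With β-catenin loss the arrays read 4.61 and 4.24, again below that line. In the IFE, signal above that line was thus seen in 2 of 3 arrays at 4 weeks, 2 of 2 at 10 weeks and no other array.

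This spread put Cdkn2a at the 99.5th percentile of all probe sets by standard deviation over the 16 arrays (1.52). The 10-week difference from control was 3.55 ± 0.94 (interval 1.49 to 5.61, adjusted p = 0.12 by limma), so the gene was not called although both arrays were above all controls. In a fit on the control and 10-week arrays alone, without the spread of the 4-week arrays, its adjusted p was 0.000702, and it was 0.000653 with array weights. The fit on control and 10-week arrays takes its spread partly from the 10-week arrays, which differed from each other by a median of only 0.118. Across settings the number of all genes called at 10 weeks ran from 0 to 1545, against 100 as reported. At 4 weeks the Cdkn2a difference was 2.0 ± 0.84 (adjusted p = 0.278) and the groups overlapped. Against SmoM2 alone, β-catenin loss gave -1.72 ± 0.94 (adjusted p = 0.393). The control level is at the bottom of the scale, so log2 differences from it understate any change of a gene that is silent there.

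Cdkn2c encodes p18Ink4c, which in many dividing cells is expressed together with the cell cycle. Its signal (1416868_at) was 9.53, 9.36 and 9.79 in control cells, 10.1 at 3 days, and 9.61, 9.08 and 10.1 at 1 week. It was 8.88, 7.7 and 9.29 at 4 weeks, 8.68 and 8.94 at 10 weeks, and 8.57 and 9.39 with β-catenin loss. All 4-week and 10-week arrays lay below the controls, opposite to the other INK4 genes. The differences of -0.94 ± 0.39 at 4 weeks (adjusted p = 0.274) and -0.76 ± 0.44 at 10 weeks (adjusted p = 0.641) did not pass limma's test.

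**Figure D1:**
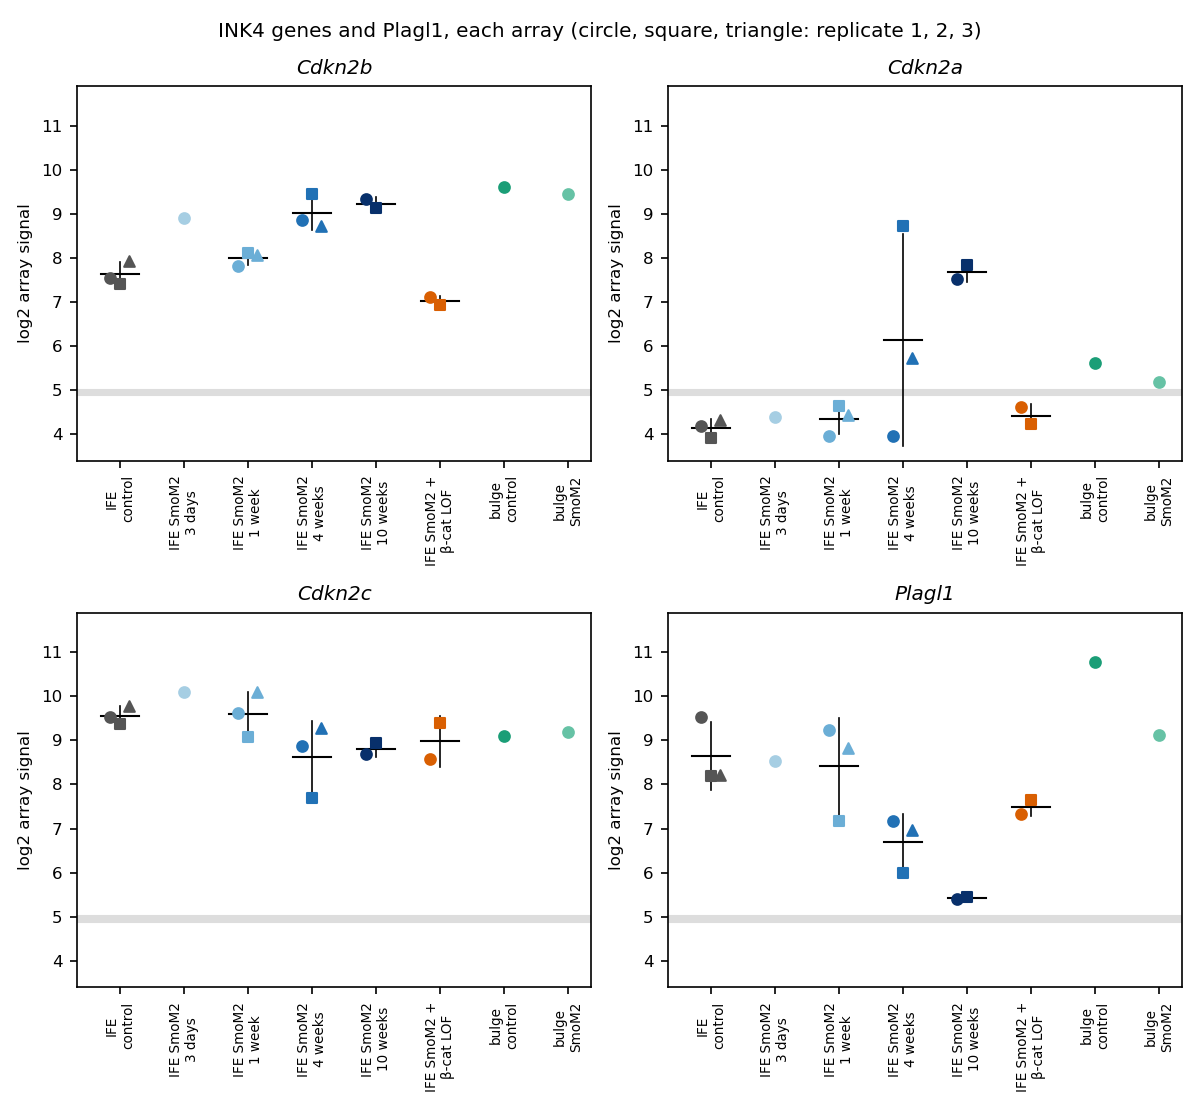
Log2 array signal of Cdkn2b, Cdkn2a, Cdkn2c and Plagl1 in each of the 16 arrays, by group; circles, squares and triangles are replicates 1, 2 and 3, the horizontal line is the group mean, the vertical line its SD, and the grey band is the range of the arrays' 40th percentiles (4.88 to 5.01). Cdkn2b is above control at 4 and 10 weeks and lowest with β-catenin loss, Cdkn2a is above the grey band in 2 of 3 arrays at 4 weeks, both at 10 weeks and both bulge arrays and below it in all others, and Plagl1 falls to 5.42 on average at 10 weeks.

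Replicate 2 at 4 weeks was the most extreme 4-week array for Cdkn2a, Cdkn2b, Cdkn2c and Plagl1. Without it the 4-week difference of Cdkn2b was 1.16 ± 0.2 (adjusted p = 0.0266), so that call did not rest on this array. Of 10 bulge and outer root sheath markers, 4 passed as higher at 4 weeks (median 1.57) and 4 at 10 weeks (median 2.37). Their mean level was 8.32 to 8.76 in controls, 8.48 at 3 days, 9.38 to 10.39 at 1 week, 9.73 to 10.68 at 4 weeks, 10.49 to 10.58 at 10 weeks and 9.02 to 9.59 with β-catenin loss. The marker list was above controls at 4 and 10 weeks, where Cdkn2b was above them too, and at 1 week, where Cdkn2b overlapped them. With β-catenin loss the list was above controls and Cdkn2b below them. The part of this list in the Cdkn2b result was not tested. Cd34, 1 of these 10 markers, stayed at 5.63 or below in every IFE array, while 9 of 10 were positive at 4 weeks and 8 of 10 at 10 weeks. The mean level of 7 sebaceous gland markers was 9.4 to 10.24 in controls, 8.05 to 9.52 at 4 weeks, 8.57 to 8.85 at 10 weeks and 10.19 to 10.63 with β-catenin loss, with 0 of 7 called in these comparisons, and their part was not tested either. The 3 genes whose signal ran most like that of Cdkn2b over the 16 arrays, which share their groups, were Patj (Pearson r = 0.9), Lxn (0.9) and Sdf2 (0.88).

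Among the CIP/KIP genes, 0 of 3 passed in any comparison, and most of their group ranges overlapped. Cdkn1a, the main p53 target among the CDK inhibitors, had signals (1424638_at) of 10.54, 9.97 and 10.14 in control cells, 10.88 at 3 days, and 11.3, 10.05 and 10.7 at 1 week. It was 10.26, 10.35 and 10.89 at 4 weeks, 10.72 and 10.52 at 10 weeks, and 10.99 and 10.58 with β-catenin loss. The means in SmoM2 groups were all higher than the control mean of 10.22, by 0.28 ± 0.31 at 4 weeks (adjusted p = 0.782 by limma), 0.40 at 10 weeks (adjusted p = 0.829) and 0.57 with β-catenin loss (adjusted p = 0.468). Only the β-catenin loss and 3-day arrays were all above the controls. The other Cdkn1a probe set (1421679_a_at) gave differences of 0.78 at 10 weeks and 0.89 with β-catenin loss, with adjusted p of 0.562 and 0.26 over all probe sets tested. At 4 weeks it gave -0.01, so it did not show the higher mean of the main probe set there.

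Cdkn1b, which holds keratinocytes back from S phase and is controlled largely through the turnover of its protein, had signals (1434045_at) of 8.79, 9.72 and 9.57 in control cells. They were 9.14 at 3 days, 8.73, 9.99 and 9.73 at 1 week, and 8.97, 9.96 and 9.47 at 4 weeks. They were 9.41 and 9.32 at 10 weeks and 10.13 and 9.78 with β-catenin loss. Only the β-catenin loss arrays were all above the controls. The difference with β-catenin loss was 0.60 from the control (adjusted p = 0.514 by limma) and 0.49 from SmoM2 alone (adjusted p = 0.591), and at 10 weeks it was 0.01 (adjusted p = 0.998). The other probe set (1419497_at) was above the low-signal line in 12 of 16 arrays. It gave -0.45 at 4 weeks (adjusted p = 0.786 by limma over all probe sets tested). With β-catenin loss it was 1.07 above SmoM2 alone without overlap (adjusted p = 0.328). By the main probe set replicate 1 was the lowest and replicate 2 the highest in control, 1-week and 4-week cells.

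Cdkn1c, an imprinted gene that is known for arrest during development, had low signal (1417649_at) throughout the IFE. It read 5.51, 5.13 and 5.86 in control cells, 6.19 at 3 days, 5.54, 5.13 and 6.09 at 1 week, and 6.29, 5.19 and 6.1 at 4 weeks. It read 5.97 and 5.54 at 10 weeks and 6.16 and 5.84 with β-catenin loss. Every IFE group but the single 3-day array overlapped the controls, and no difference passed (adjusted p = 0.735 at 4 weeks and 0.907 at 10 weeks by limma).

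The p53 feedback genes passed in 0 comparisons. Mdm2 (1423605_a_at) read 8.42, 8.86 and 8.69 in control cells, 9.02 at 3 days and 8.75, 8.95 and 8.58 at 1 week. It read 8.85, 9.28 and 9.13 at 4 weeks, 9.01 and 9.09 at 10 weeks, and 9 and 9.4 with β-catenin loss. The 10-week and β-catenin loss arrays were all above the controls, and 1 of 3 arrays at 4 weeks, at 8.85, was not. The differences were 0.43 ± 0.2 at 4 weeks (adjusted p = 0.332 by limma), 0.39 ± 0.22 at 10 weeks (adjusted p = 0.618) and 0.54 ± 0.22 with β-catenin loss (adjusted p = 0.283). A further Mdm2 probe set (1427718_a_at) was 6.24, 6.47 and 7.07 in control cells and 7.32 and 7.46 at 10 weeks, a difference of 0.8 with an adjusted p of 0.659 over probe sets, and the last (1457929_at) was below the low-signal line in all 16 arrays.

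Ccng1, the cyclin induced by p53 in many tissues, read (1420827_a_at) 10.23, 9.7 and 9.77 in control cells, 10.14 at 3 days and 10.97, 9.83 and 10.47 at 1 week. It read 10.41, 9.67 and 9.41 at 4 weeks, 10.2 and 9.81 at 10 weeks, and 10.17 and 9.95 with β-catenin loss. By this probe set every IFE group overlapped the controls, and the widest difference from them was that at 1 week, 0.52 ± 0.32 (adjusted p = 1 by limma). Between 1 and 4 weeks it was -0.59. At 4 weeks the difference from control was -0.07 (adjusted p = 0.957) and at 10 weeks 0.1 (adjusted p = 0.967). The probe set 1450016_at read 8.32 and 7.74 with β-catenin loss, above its controls (7.31, 6.34 and 7.5), with differences of 0.98 from control and 1.1 from SmoM2 alone (adjusted p of 0.381 and 0.321 over all probe sets tested). The last, 1450017_at, gave 0.48 and 1.07 (adjusted p of 0.719 and 0.459).

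**Figure D2:**
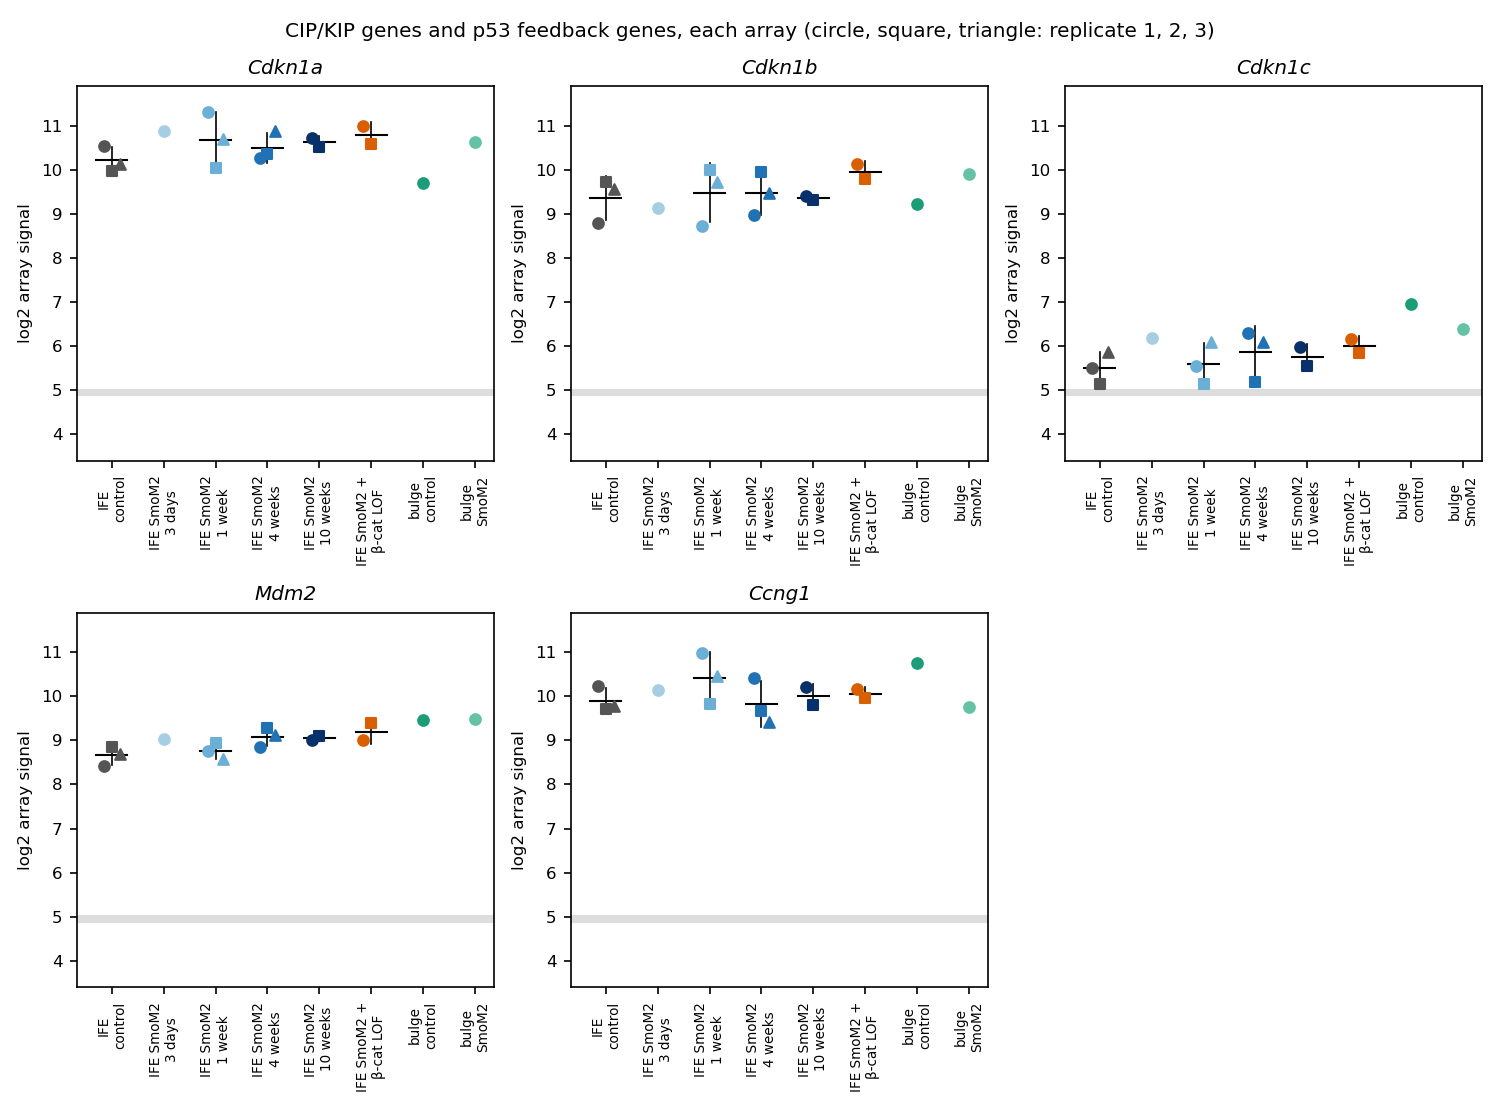
Log2 array signal of Cdkn1a, Cdkn1b, Cdkn1c, Mdm2 and Ccng1 in each of the 16 arrays, drawn on the same scale and with the same symbols as the plot of the INK4 genes (line: group mean; vertical line: SD; grey band: 40th percentiles). The control arrays of these 5 genes overlap with at least 1 SmoM2 group each, and the means of Mdm2 run from 8.66 in control cells to 9.2 with β-catenin loss.

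Plagl1 had the lowest values of its range at 10 weeks. Its signal (1426208_x_at) was 9.53, 8.18 and 8.22 in control cells, 8.54 at 3 days, and 9.24, 7.16 and 8.83 at 1 week. It was 7.16, 5.98 and 6.96 at 4 weeks, and 5.39 and 5.45 at 10 weeks, just above the low-signal line. With β-catenin loss it was 7.34 and 7.65, between the control and 4-week arrays without overlapping either. All 4-week arrays were below all controls, and both 10-week arrays were below all 4-week arrays.

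By limma, Plagl1 fell 9.33-fold at 10 weeks (log2 difference -3.22 ± 0.59 SE, interval -4.5 to -1.94, n = 2 and 3, adjusted p = 0.0366). At 4 weeks the difference was -1.94 ± 0.52 (interval -3.09 to -0.79, adjusted p = 0.0726), and it passed in the fit blocked by replicate number (adjusted p = 0.0365). With β-catenin loss it was -1.15 ± 0.59 from control (adjusted p = 0.392) and 0.80 ± 0.59 from SmoM2 alone (interval -0.49 to 2.08, adjusted p = 0.542). Between 4 and 10 weeks it was -1.28 ± 0.59 (adjusted p = 0.794), in a comparison where 0 genes passed and 893 genes (6.25%) had an unadjusted p under 0.05. In order of means Plagl1 stood at 8.64 in control cells, 8.54 at 3 days, 8.41 at 1 week, 7.5 with β-catenin loss, 6.7 at 4 weeks and 5.42 at 10 weeks, and neighbours in this order did not differ by the test where it was run.

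The 10-week call of Plagl1 was lost in each of the 5 fits that left out 1 array, at adjusted p of 0.0948, 0.0814 and 0.0736 without control replicates 1, 2 and 3, and 0.417 and 0.339 without 10-week replicates 1 and 2. It was also lost with the 10-week arrays averaged as 1 sample (0.407), without the filter on low signal (0.0564) and in the fit across all probe sets (0.0595). Its probe set carries the suffix that marks possible cross-hybridisation, and the other probe sets of the gene, 1438588_at (4.38 to 5.12) and 1450533_a_at (3.93 to 5.22), were near or below the low-signal line, so that the mean of all 3 gave -1.21 ± 0.24 (adjusted p = 0.0478). The mean of 9 melanocyte markers was 6.94 to 9.04 in controls, 7.14 at 3 days, 6.28 to 7.82 at 1 week, 6.07 to 7.42 at 4 weeks, 5.52 to 6.29 at 10 weeks and 5.39 to 5.42 with β-catenin loss. Their median difference from control was -0.8 at 3 days and -1.11 at 1 week, when Plagl1 overlapped the controls. It was -1.57 at 4 weeks and -2.33 at 10 weeks, when Plagl1 was below them. With β-catenin loss it was -2.35, where Plagl1 was below the controls and above its 4-week values. Sebaceous markers were also lower at 10 weeks (7 of 7 negative, median -0.99). The part of either list in the Plagl1 result was not tested. The 3 genes most like Plagl1 over the 16 arrays were Prickle1 (Pearson r = 0.9), Dhrs4 (0.89) and Cbr2 (0.89).

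The members did not move as one group. At 4 weeks 6 of 9 differences from control were positive, with a median of 0.28 against -0.05 over all genes, and at 10 weeks 7 of 9, with a median of 0.25 against -0.06. At 4 weeks 3 of 9 members had groups that did not overlap (Cdkn2b higher, Cdkn2c and Plagl1 lower), where 17.3% of all genes did. At 10 weeks 5 of 9 did (Cdkn2b, Cdkn2a and Mdm2 higher, Cdkn2c and Plagl1 lower), where 37.3% of all genes did. With β-catenin loss against control 5 of 9 did not overlap (Cdkn1a, Cdkn1b and Mdm2 higher, Cdkn2b and Plagl1 lower; 33.6% of all genes), and against SmoM2 alone 2 of 9 did not (Cdkn2b lower, Plagl1 higher; 28.6% of all genes). With β-catenin loss against SmoM2 alone 7 of 9 differences were positive, with a median of 0.23 against -0.09, and Cdkn2b and Cdkn2a were the 2 with lower values.

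**Figure D3:**
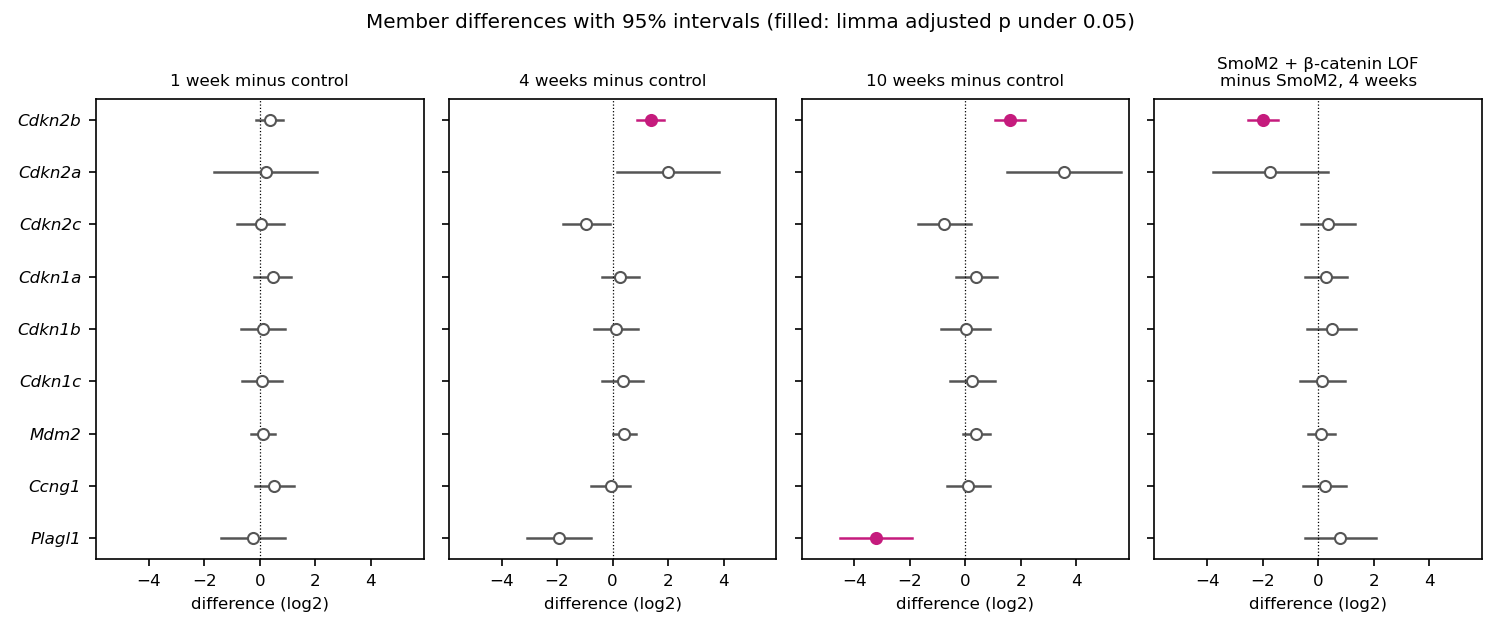
Log2 differences of the 9 members with 95% intervals from limma at 1, 4 and 10 weeks against IFE control and, in the last panel, for SmoM2 with against without β-catenin loss; filled points have an adjusted p under 0.05. Cdkn2b is filled in the last 3 panels (1.38, 1.59 and -2.0) and Plagl1 at 10 weeks (-3.22), while the intervals of Cdkn2a are the widest.

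In the bulge, with 1 array per condition and no replicate check, Cdkn2b was 9.61 in the control and 9.45 with SmoM2, so both were above the 2 IFE arrays at 10 weeks, and the SmoM2 difference was -0.16. Plagl1 was 10.77 and 9.12, a value 3.14-fold lower with SmoM2, and by the main probe sets it was the only member to differ by at least 2-fold between these arrays, where 2.59% of all genes were at least 2-fold lower and 4.35% higher. The bulge control was above the IFE control mean by 1.97 for Cdkn2b, 2.13 for Plagl1, 1.47 for Cdkn2a and 1.46 for Cdkn1c, 4 of 9 members at least 2-fold higher where 7.24% of genes were, and 0 of 9 at least 2-fold lower where 5.68% were. Cdkn2a was 5.61 and 5.19, Cdkn2c 9.09 and 9.18, and Cdkn1c 6.96 and 6.39, in control and SmoM2 cells in turn. Cdkn1a was 9.7 and 10.64, a difference of 0.94 that was 0.06 in its other probe set. Cdkn1b was 9.22 and 9.9, a difference of 0.68 that was -0.41 in its other probe set. Ccng1 was 10.75 and 9.76, lower with SmoM2 in all 3 of its probe sets (-0.98, -0.69 and -1.19), while Mdm2 was 9.46 and 9.49.

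The wider p53 pathway showed few calls, as did all genes. Of 36 p53 target genes tested (39 listed), 1 passed as higher at 4 weeks and 0 as lower, where 3.24% of all genes passed. Of the 36, 18 were positive, with a median of 0.04. At 1 week 27 of 36 were positive (median 0.18) and at 10 weeks 25 of 36 (median 0.21). At either time 0 of them were called, where 0 and 0.7% of all genes passed. The called gene was Plk2, a polo-like kinase induced by p53, which read 7.41, 7.05 and 7.55 in control cells and 8.4, 8.53 and 8.79 at 4 weeks (1.24 ± 0.24, adjusted p = 0.0255 by limma). That call was lost in all 6 fits without 1 array (adjusted p 0.0523 to 0.103). With β-catenin loss 0 of 36 passed, and the lowest adjusted p were those of Trp53inp1 (1.71 ± 0.39, adjusted p = 0.0936) and Ddit4 (1.43 ± 0.34, adjusted p = 0.1), both linked to p53 and to stress signalling. Of 17 p53 family members and regulators 0 passed in any comparison; Mdm4, the partner of Mdm2, gave 0.42 ± 0.19 at 4 weeks (adjusted p = 0.334) and 0.53 ± 0.21 at 10 weeks (adjusted p = 0.372).

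Of 24 cyclins, CDKs and Rb/E2F partners tested, 1 passed at 4 weeks, where 3.24% of all genes did. This was Ccnd2, the D-type cyclin bound by CDK4 and CDK6. It fell from 11.75, 12.15 and 11.97 in control cells to 10.56, 10.54 and 11.24 (-1.17 ± 0.27, adjusted p = 0.0408 by limma). That call was lost without any of 5 of the 6 arrays compared (adjusted p 0.0782 to 0.151). With β-catenin loss Ccnd2 read 11.89 and 11.86, 1.10 ± 0.3 above SmoM2 alone (adjusted p = 0.083, and 0.0287 with the replicate block). The list's median was -0.32 at 4 weeks, with 19 of 24 negative, -0.19 at 10 weeks and -0.61 with β-catenin loss, with 22 of 24 negative. Of 16 proliferation markers 0 passed in any comparison, but 16 of 16 were negative at 4 weeks (median -0.47), at 10 weeks (-0.42) and with β-catenin loss (-1.05), against 15 of 16 positive at 1 week (0.36). Genes of a list share the same few arrays, so these counts of signs are not tests. The medians over all genes were -0.05, -0.06 and -0.12 in these 3 comparisons and 0 at 1 week. The mean level of the proliferation markers was 9.34 to 10.03 in the control arrays and 9.57 to 10.31 at 1 week. It was 9.39, 8.32 and 9.77 at 4 weeks, and 9.13 and 9.4 at 10 weeks. With β-catenin loss it was 7.98 and 9.4. Each of these groups overlapped the controls.

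Among genes that act on the members, few passed the test, and few of all genes did. The share of all genes was 3.24% at 4 weeks. With β-catenin loss it was 0.371% against control and 2.23% against SmoM2 alone. Of 13 genes listed for SCF ubiquitin ligases and the turnover of Cdkn1b and Cdkn1a, Foxo genes among them, 0 passed in any comparison. The differences included 2.42-fold lower signal of Fbxw7, a ubiquitin ligase subunit, at 10 weeks (adjusted p = 0.207 by limma). Its bearing on Cdkn1b or Cdkn1a was not tested. Of 19 Polycomb and other regulators of the Ink4/Arf locus, Kdm6b, the demethylase that removes the repressive Polycomb mark, was higher at 4 weeks, at 10.53, 10.38 and 10.51 against 9.2, 9.46 and 9.24 (1.17 ± 0.27, adjusted p = 0.0367 by limma). At 10 weeks Kdm6b read 9.52 and 9.46, close to the controls. Its link to the Cdkn2a signal was not tested. Its call was lost in all 6 fits without 1 array (adjusted p 0.0737 to 0.127). Tbx2, a repressor of Cdkn2a, passed as higher with β-catenin loss against control (1.11 ± 0.18, adjusted p = 0.0346) and against SmoM2 alone (0.85 ± 0.18, adjusted p = 0.0409), but its signals of 5.01 and 5.06 there were at the low-signal line and all others, 3.89 to 4.41, were below it. These calls were lost in 5 of 5 and 4 of 5 fits without 1 array.

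Of 14 imprinted genes tested from the network of Plagl1 and Cdkn1c (21 listed), 0 passed in any comparison. Grb10, an adaptor of growth factor receptors, came nearest at 10 weeks (-1.44 ± 0.36, adjusted p = 0.1 by limma). Peg3, a paternally expressed zinc finger gene, gave 2.77 ± 0.89 at 4 weeks (adjusted p = 0.13) and -3.03 ± 0.99 with β-catenin loss against SmoM2 alone (adjusted p = 0.138), and stood at 5.55 at 10 weeks against 5.4 in control cells. The list's median at 10 weeks was 0.03, beside -3.22 for Plagl1 itself.

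**Figure D4:**
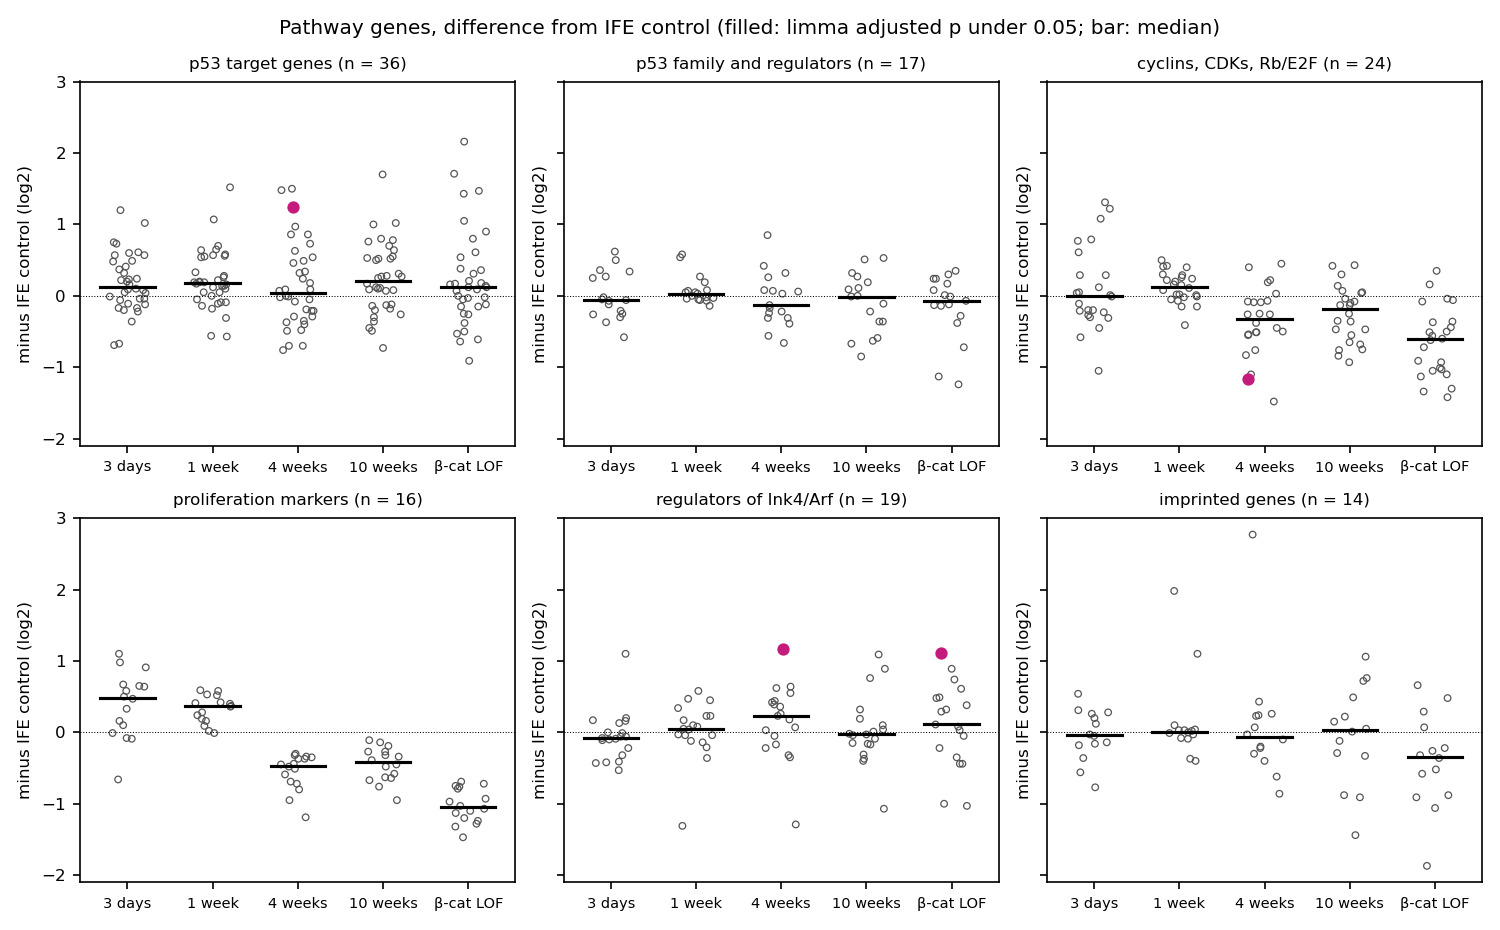
Log2 differences from IFE control of the genes tested in 6 pathway lists (36, 17, 24, 16, 19 and 14 genes) at 3 days, 1 week, 4 weeks and 10 weeks and with β-catenin loss; each point is a gene, the bar is the list's median, and filled points have a limma adjusted p under 0.05. Few points are filled, and the proliferation markers lie below 0 as a whole at 4 weeks, 10 weeks and with β-catenin loss. Their mean level per array overlaps the controls in each of these groups.

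The signal of Y-linked genes was not balanced between groups. It averaged 3.41, 8.18 and 3.43 in control cells, 7.55 at 3 days, 8.26, 3.34 and 7.38 at 1 week, 8.41, 7.58 and 6.02 at 4 weeks, 8.1 and 8.15 at 10 weeks, and 3.39 and 6.91 with β-catenin loss. Some arrays, such as 4-week replicate 3 and β-catenin loss replicate 2, had values between the high and the low ones. With this signal as a covariate Cdkn2b gave 1.48 ± 0.25 at 4 weeks (adjusted p = 0.0193 by limma), 1.73 ± 0.29 at 10 weeks (adjusted p = 0.0354) and -2.09 ± 0.27 for β-catenin loss against SmoM2 alone (adjusted p = 0.0179). Plagl1 gave -3.56 ± 0.67 at 10 weeks (adjusted p = 0.0405).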

How the data were processed

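The authors deposited 1 table of log2 array signal for 45101 probe sets in 16 arrays; the log2 scale was read from the range of values (2.73 to 14.62). Per the labels' protocols, 100 ng of total RNA per array was amplified from the 3′ end by in vitro transcription. R 2.14.0 is named in the submitters' processing notes. How background was corrected, arrays normalized and probes summarised is not given in the sources used here. Depth does not apply to arrays; their number limits the precision.

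Of the probe sets, 34958 were annotated to 1 gene, 932 to several and 9211 to none, and 34754 matched the gene table. A gene with several probe sets took the one with the highest mean signal. Genes were tested if 2 or more of the 16 arrays had them above that array's 40th percentile. Group means over the 14 IFE arrays were fitted with limma 3.58.1 in R 4.3.3 (total degrees of freedom 11.6), with Benjamini-Hochberg adjustment over 14286 genes and a threshold of 0.05, in 8 comparisons. All tests are two-sided. The bulge arrays got no test. The script was tested on simulated data.

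The members and gene lists were chosen with earlier results of these data known. All members are named. For each pathway list and comparison, up to 4 called genes with the largest differences, or else the 2 of lowest adjusted p, could be named, and for each called member the 3 genes of highest Pearson r. Genes in each pathway list came from a list written by hand, and some are not reported here.

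Same-numbered control, 1-week and 4-week arrays deviated together (9 pairs, r 0.34 to 0.7, against -0.53 to 0 for 18 other pairs), a pairing seen in the data and shared by the experiment numbers of the labels. The 10-week and β-catenin loss arrays did not pair (r -0.18 to 0.18). Alternatives were quantile normalization, median centring, no filter, the mean of probe sets, only the groups compared, all 16 arrays, array weights, a trended and robust fit, replicate blocks, the Y-linked covariate, leaving out each array and, added later, a block over the 3 paired groups and averaged 10-week arrays.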

Additional observations from a re-analysis of the deposited data

Results flagged for a closer look

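The sign of the Cdkn2b difference between SmoM2 at 4 weeks and control was not the same in the IFE and the bulge. Each of the 3 IFE arrays was above the control mean, by 1.09 to 1.82, while the single bulge array was below its control, at -0.16. This difference was not tested, since the bulge has 1 array per condition. The bulge value is smaller than the median difference between replicates in every IFE group but the 10-week one (0.279 to 0.484), so its sign is uncertain. The source label of the bulge control also names SmoM2+ cells, and its mean of hedgehog targets was 10.04.

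For Cdkn2c the signs were the other way round, again with a small bulge difference. Each 4-week IFE array was below the control mean, by -1.86 to -0.27, and the bulge difference was 0.09. This was not tested either, and the same limits apply.

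Cdkn2b also differed between SmoM2 with and without β-catenin in the IFE, where the 3 hedgehog targets were lower with β-catenin loss too (median -2.06). Their part in the Cdkn2b difference was not tested. The Cdkn2b difference was -2.0 ± 0.25 (limma, adjusted p = 0.00948, n = 2 and 3), with both β-catenin loss arrays below all 3 arrays of SmoM2 alone. The adjusted p was 0.0698 in a fit on these groups alone and 0.0712 without β-catenin loss replicate 1.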

How the results depend on the processing

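Over 26 settings, 1215 of 1331 values kept their direction and side of the threshold, 55 lost and 8 gained a call, and 53 turned sign, none of them called. These values include some list genes beside the members. Most were not called in the main fit, so that staying uncalled counts as kept, and only the few called values could lose a call. At 10 weeks the number of members called (2) was 1 without the filter (Cdkn2b) and 0 with the 10-week arrays averaged (adjusted p 0.259 for Cdkn2b and 0.407 for Plagl1), and 0 to 1 without 1 array. It was 3, where Cdkn2a passed too, with only the groups compared and with array weights (all genes across settings: 0 to 1545, against 100 as reported). At 4 weeks (1) it was 2 with each replicate block (title number, description number, or the 3 paired groups alone), with Plagl1 at 0.0365, 0.0267 and 0.0277, and 0 to 1 without 1 array. For β-catenin loss against SmoM2 alone (1) it was 0 with only the groups compared (0.0698) and 0 to 1 without 1 array. Leaving out arrays or the 4-week spread changes the samples; further causes were not tested. The blocks changed no other member's call. Counts over all genes ranged from 13 to 955 at 4 weeks (463), 0 to 1545 at 10 weeks (100), 1 to 169 with β-catenin loss against control (53) and 2 to 1347 against SmoM2 alone (318), and from 0 to 50, 24, 14 and 1 at 1 week, 4 weeks against 1 week, 10 weeks against 4 weeks and 3 days, each 0 as reported. Centring moved the median of all genes from -0.05 to -0.11 at 4 weeks. Uncalled differences that turned sign: Cdkn1b at 10 weeks to -0.02 (quantile), -0.02 (centred), -0.08 (mean of probe sets), -0.01 (array weights) and -0.21 (block, description number); with the mean of probe sets Cdkn1b to -0.03 at 1 week, -0.17 at 4 weeks and 0.09 between 4 and 10 weeks, and Mdm2 to 0.14 there; with array weights Plagl1 to 0.03 at 1 week and Cdkn2c to -0.05 between 4 and 10 weeks; with the block by title number Cdkn1b to 0.13 and Ccng1 to -0.14 at 3 days and Cdkn1c to 0.08 between 4 and 10 weeks; with the Y-linked covariate Cdkn2c to -0.03 at 1 week, Ccng1 to -0.12 at 10 weeks and Cdkn1b to 0.04 between 1 and 4 weeks. Without 1 array, at 3 days Plagl1 ranged from -0.33 to 0.34. At 1 week Cdkn1b ranged from -0.16 to 0.5, Mdm2 from -0.02 to 0.21, Plagl1 from -0.65 to 0.39, Cdkn1c from -0.17 to 0.31 and Cdkn2c from -0.22 to 0.29. At 4 weeks Cdkn1b ranged from -0.18 to 0.36 and Ccng1 from -0.36 to 0.14, and at 10 weeks Cdkn1b from -0.28 to 0.19 and Ccng1 from -0.09 to 0.3. Between 1 and 4 weeks Cdkn1a ranged from -0.5 to 0.13 and Cdkn1b from -0.39 to 0.24. Between 4 and 10 weeks Cdkn1c ranged from -0.44 to 0.11, Cdkn1b from -0.35 to 0.14, Cdkn2c from -0.28 to 0.51, Mdm2 from -0.15 to 0.06 and Ccng1 from -0.03 to 0.46. With β-catenin loss against SmoM2 alone Mdm2 ranged from -0.09 to 0.31, Cdkn1c from -0.19 to 0.36 and Cdkn2c from -0.11 to 0.76. Groups of 1 to 3 arrays, and signal near the low-signal line for Cdkn2a and Cdkn1c, limit all of these values.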
